A study of Mus musculus with 16 samples.

Results

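Fibroblast growth factor (FGF) signalling was followed at the genes of 5 ligands (Fgf4, Fgf5, Fgf8, Fgf15 and Fgf17) and of the 4 signalling receptors (Fgfr1, Fgfr2, Fgfr3 and Fgfr4), 9 of 21887 protein-coding genes in the gene table used. For each gene, peaks were taken from the gene span and 10 kb either side, as annotated in mm10, and 106 of 117176 deposited peaks lay there (13 of H3K4me3, 34 of H3K27ac and 59 of H3K27me3). FGFs are secreted proteins that bind receptor tyrosine kinases at the cell surface. The bound receptor dimerises and signals through adaptor proteins, RAS, RAF, MEK and ERK, and heparan sulfate or a Klotho protein serves as cofactor. In mouse embryonic stem cells this pathway moves cells out of the naive state towards differentiation, and blocking MEK holds them in it.

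The series compared histone marks by chromatin immunoprecipitation with sequencing (ChIP-seq) in mouse embryonic stem cells with and without Mettl14, whose protein is the partner of METTL3 in the RNA m6A methyltransferase. H3K4me3 lies at active and poised promoters, H3K27ac at active promoters and enhancers, and H3K27me3 is the mark of the Polycomb complex PRC2. Each mark had 2 Mettl14 control and 2 Mettl14 knockout libraries (titled Control and CKO), which gave 12 peak lists, and the 4 input libraries were not analysed here. All cells were of strain C57BL/6 and grew in serum with LIF, the GSK3 inhibitor CHIR99021 and the MEK inhibitor PD0325901, whose target lies below the FGF receptors in the pathway. The medium was shared by control and knockout, and ERK activity was not measured in these data. How the knockout was made, and whether replicates came from separate cultures or clones, is not given in the sources used here, so a p-value measures only the spread between these libraries, which may be technical.

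The lists differed in length, and these differences touch every comparison below. H3K4me3 lists held 2431 and 2859 peaks in control cells and 8055 and 8131 in knockout cells. H3K27me3 lists held 6312 and 7203 against 11349 and 11446, and H3K27ac lists 13520 and 15541 against 15058 and 15271. The H3K4me3 lists covered a mean of 1.67 Mb in control and 8.01 Mb in knockout cells. For H3K27me3 these means were 4.8 Mb and 10.3 Mb, and for H3K27ac 14.25 Mb and 15.95 Mb. The lists give positions and widths only, the narrowest peak in each was 501 bp, and read depth is unknown. With 2 lists against 2 the exact two-sided permutation test cannot give a p below 0.333. The labels of the H3K27ac libraries name the H3K4me3 antibody, and the mark in the title was used. H3K27ac was called at 7 of the 8 embryonic stem cell markers in all 4 lists, against 20.4% of all protein-coding genes. The other, Zfp42, had no peak in control replicate 2. H3K4me3 was called at all 8 in both knockout lists but at only 3 in both control lists, against 33.9% and 5.85% of all genes. Of the 6 fibroblast markers, 0 had H3K4me3 in any list (47.3% of all genes had none). H3K27ac was called in both lists of a condition at 0 of them (25.2% of all genes in control and 30.2% in knockout cells). Of the primitive endoderm markers, 0 of 6 had either active mark in both lists of a condition, beside the same shares of all genes. H3K27me3 was called in all 4 lists at 4 of 6, against 10.2% of all genes. Trophectoderm markers were mixed, with H3K4me3 at Tfap2c and Eomes, of 6, in both knockout lists and no control list (16.6% of all genes).

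The 9 genes fell into groups by mark. Fgf4 had both active marks in all 4 lists of each and no H3K27me3 peak. Fgfr1 had H3K4me3 in all 4 lists at the lower-coordinate end of its span, with small scattered H3K27ac peaks inside the gene. Strand and start were in the table used for Fgf4, Fgf5, Fgfr2, Fgfr3 and Fgfr4, and positions at the other 4 genes are counted from the lower-coordinate end. Fgf5, Fgf8, Fgf15, Fgfr2 and Fgfr3 had H3K27me3 in all 4 lists. Fgf17 and Fgfr4 had few peaks of their own. In 0 of the 9 windows did an H3K4me3 or H3K27ac peak overlap an H3K27me3 peak of the same condition, in any pair of lists. Over all protein-coding genes, H3K4me3 and H3K27me3 peaks overlapped in 0.516% of control and 4.89% of knockout windows, and H3K27ac and H3K27me3 peaks in 1.12% and 2.50%.

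Promoter sequences were in the RefSeq table (GRCm38.p6) for 5 of the 9 genes, namely Fgf4, Fgf5, Fgfr2, Fgfr3 and Fgfr4. They are shown to compare a gene with active marks in its window, genes with H3K27me3 in theirs and a gene with almost no peaks. The marks named beside the sequences are those of the windows, not of the printed bases. H3K27me3 touched the printed bases of Fgf5 in knockout replicate 2 alone and of Fgfr2 in knockout replicate 1 alone. It touched those of Fgfr3 in both knockout lists and no control list. Both active marks touched those of Fgf4 in every list but control replicate 1. Each sequence is the 250 bases before the annotated start, 5′ to 3′ on the strand of the gene, with CpG dinucleotides in capitals.
Fgf4, chr7:144861136-144861385, plus strand, active marks: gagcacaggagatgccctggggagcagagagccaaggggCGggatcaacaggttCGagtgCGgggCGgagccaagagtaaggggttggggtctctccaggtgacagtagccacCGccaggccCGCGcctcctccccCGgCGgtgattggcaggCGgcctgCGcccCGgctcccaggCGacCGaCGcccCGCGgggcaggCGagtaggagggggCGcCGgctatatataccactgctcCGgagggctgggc
Fgf5, chr5:98253934-98254183, plus strand, H3K27me3: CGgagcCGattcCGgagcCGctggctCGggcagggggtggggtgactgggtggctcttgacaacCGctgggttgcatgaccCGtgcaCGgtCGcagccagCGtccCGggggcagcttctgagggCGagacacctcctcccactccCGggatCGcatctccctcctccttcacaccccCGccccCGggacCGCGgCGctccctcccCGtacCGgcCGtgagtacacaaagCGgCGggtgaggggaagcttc
Fgfr3, chr5:33721474-33721723, plus strand, H3K27me3: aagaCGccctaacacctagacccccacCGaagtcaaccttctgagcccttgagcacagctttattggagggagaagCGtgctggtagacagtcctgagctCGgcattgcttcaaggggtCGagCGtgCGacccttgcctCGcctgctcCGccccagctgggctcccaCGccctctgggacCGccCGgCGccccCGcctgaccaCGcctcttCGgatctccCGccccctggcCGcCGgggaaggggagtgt
Fgfr2, chr7:130266809-130267058, minus strand, H3K27me3: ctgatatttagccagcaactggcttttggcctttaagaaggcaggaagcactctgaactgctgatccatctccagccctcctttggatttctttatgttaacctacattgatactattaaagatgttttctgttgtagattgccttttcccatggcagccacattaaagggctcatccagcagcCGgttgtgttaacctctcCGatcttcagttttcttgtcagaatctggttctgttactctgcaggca
Fgfr4, chr13:55152568-55152817, plus strand, almost no peaks: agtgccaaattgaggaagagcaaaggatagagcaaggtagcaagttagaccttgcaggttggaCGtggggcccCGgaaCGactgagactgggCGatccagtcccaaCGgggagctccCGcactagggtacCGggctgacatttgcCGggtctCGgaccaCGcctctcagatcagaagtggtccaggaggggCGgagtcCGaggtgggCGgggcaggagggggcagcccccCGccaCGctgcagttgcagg

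The promoters of Fgf4, Fgf5, Fgfr3 and Fgfr4 were rich in CpG and that of Fgfr2 was not. Over the 300 bases from 250 before to 50 after the start, the observed over expected CpG ratio was 0.77 at Fgf4, 0.83 at Fgf5, 0.73 at Fgfr3, 0.65 at Fgfr4 and 0.28 at Fgfr2. The median over 32851 promoters in the table was 0.38. A second annotated start of Fgfr3, 582 bp further into the gene, had a ratio of 0.78. Fgf4, with active marks in its window, and Fgf5 and Fgfr3, with H3K27me3 in theirs, lay between 0.73 and 0.83. Among all promoters, those with H3K27me3 in both knockout lists had a median ratio of 0.71 and those with H3K4me3 in both knockout lists 0.87. Of these genes, only Fgfr3 was in the former class and only Fgf4 in the latter.

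Of 6 short motifs searched on both strands of the 300-base windows, the GC box GGGCGG was found at Fgf4 (2 matches), Fgf5 (1), Fgfr4 (4) and both Fgfr3 starts (4 and 2), and in 35.7% of all promoters. CCAAT was found at Fgf4 and at the first start of Fgfr3 (37.4% of all promoters), TATAAA at Fgf5 alone of these genes (13.6%) and CACGTG at Fgfr2 alone (7.15%). The octamer ATGCAAAT (1.74%) and the ETS-type motif CCGGAAG (8.86%) were not in these windows. None of these motifs contains another.

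Fgf4 encodes the main FGF ligand that embryonic stem cells make for themselves. Its gene (chromosome 7, 144861386 to 144865245) had 1 H3K4me3 peak in every list, of 811 bp and 1568 bp in control replicates 1 and 2 and of 2395 bp and 2493 bp in knockout replicates 1 and 2. Both knockout peaks were wider than both control peaks. The means were 1189.5 ± 535 bp and 2444 ± 69.3 bp (SD, n = 2 each), a 2.05-fold difference (exact permutation p = 0.333, the smallest possible). The control mean was above that of 99.2% of protein-coding genes and the knockout mean above that of 96.9%, so the rank of Fgf4 did not rise. The peaks ran to 1403 bp and 1356 bp after the start in control cells and to 2060 bp and 2313 bp in knockout cells. In control replicate 1 it began 593 bp after the start, while in the other 3 lists it reached 179 bp to 334 bp before it. Within 1 kb of the start the conditions overlapped, with 408 bp and 1212 bp called in the control replicates, then 1335 bp and 1180 bp in the knockout ones.

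H3K27ac at Fgf4 was spread over the gene and a stretch before it. Called bases in the window were 6645 bp and 9640 bp for the control replicates, then 7199 bp and 12689 bp for the knockout ones. The conditions overlapped (means 8142.5 ± 2120 bp and 9944 ± 3880 bp, SD, n = 2 each, exact permutation p = 0.667). The knockout mean was above that of 99.4% of protein-coding genes and the control mean above that of 99.1%. One cluster of peaks lay over the gene itself. It ran from 241 bp to 1499 bp after the start in control replicate 1 and from 778 bp before to 4559 bp after it in control replicate 2. In knockout replicate 1 it ended at 4146 bp and in knockout replicate 2 at 7495 bp, past the end of the 3860 bp gene. The other cluster lay before the gene, with peaks between 8346 bp and 1486 bp before the start in all 4 lists. Its widest peak was 5386 bp and 2540 bp for the control replicates, then 1542 bp and 5169 bp for the knockout ones. Beyond the gene, a peak 11102 bp to 12275 bp after the start was called in control replicate 2 (501 bp) and knockout replicate 1 (866 bp), and control replicate 2 had another of 501 bp at 6446 bp. All 4 pairs of an H3K4me3 and an H3K27ac list overlapped at Fgf4 in each condition, by up to 1568 bp in control and 2457 bp in knockout cells. Over all protein-coding genes such an overlap, in any pair of lists, was present at 12.6% in control and 30.6% in knockout cells.

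Fgfr1, the main FGF receptor of embryonic stem cells and of the epiblast (chromosome 8, 25518759 to 25575718), had H3K4me3 at the lower-coordinate end of its span. The peak was 797 bp and 501 bp wide in control lists and 2273 bp and 1381 bp in knockout lists. Both knockout peaks were wider than both control peaks, with means of 649 ± 209 bp and 1827 ± 631 bp (SD, n = 2 each), a 2.82-fold difference (exact permutation p = 0.333, the smallest possible). Among protein-coding genes, the control mean was above 95.9% and the knockout mean above 92.3%, so the rank did not rise. The peaks lay 229 bp to 1043 bp inside that end in control cells. In knockout cells they began 169 bp and 35 bp outside it and ran to 2103 bp and 1345 bp inside. The difference of 1178 bp was 732 bp without knockout replicate 1, and 488 bp within 1 kb of the span ends. The H3K27ac peaks of Fgfr1 did not overlap its H3K4me3 peaks in any pair of lists of a condition. They lay 13560 bp to 35147 bp inside the gene and were 501 bp to 951 bp wide. Called bases of H3K27ac were 1953 bp and 501 bp for the control replicates, then 1944 bp and 1002 bp for the knockout ones, and the conditions overlapped (exact permutation p = 1.0). The control replicates shared 0 bp of their H3K27ac peaks there. In each knockout list 1 further peak of 501 bp lay beyond the gene, at the neighbour Letm2. H3K27me3 was called once, 759 bp in knockout replicate 1, in the flank 2151 bp or more outside the lower-coordinate end.

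**Figure D1:**
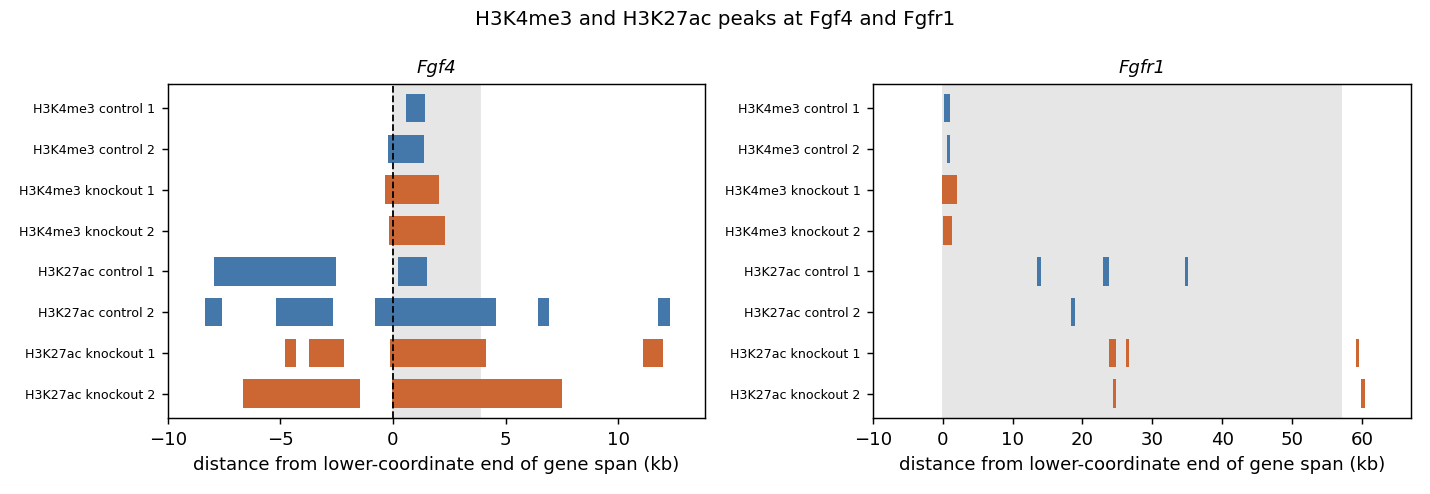
Positions of H3K4me3 and H3K27ac peaks at Fgf4 (left) and Fgfr1 (right) in each list, as distance in kb from the lower-coordinate end of the gene span (grey). Bars are peaks, blue in control and orange in knockout cells, 1 row per library, and the dashed line marks the annotated start where the table gives a strand. The knockout H3K4me3 peaks of Fgf4 ran to 2060 bp and 2313 bp after the start, against 1403 bp and 1356 bp in control lists, while H3K27ac of the conditions overlapped.

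Read over the 9 genes, H3K4me3 was called most often at Fgf4, Fgfr1 and in the Fgf8 window. Called in both knockout lists and neither control list were 0 of 9 genes, against 16.6% of all protein-coding genes. Called in all 4 lists were 2 of 9, Fgf4 and Fgfr1, against 5.48%. In 3 of 9 windows both knockout lists had more called bases than either control list, against 31.7% of all genes. Each H3K4me3 list was also cut to the length of the shortest by keeping its widest peaks. The count was then 2 of 9, Fgf4 and Fgfr1, against 11.7%, and the share of all genes called in knockout alone was 3.14%. No peak was narrowed, so the setting does not level wider knockout peaks. The differences at Fgf4 (1254.5 bp) and Fgfr1 (1178 bp) did not change. With the full lists the reverse was found at 0 of 9 (0.114% of all genes). The third such window was that of Fgf8, where the H3K4me3 peaks lay at a neighbour. All of its peaks (0 bp and 757 bp in control, 784 bp and 1316 bp in knockout lists) lay 12304 bp to 13619 bp above the lower-coordinate end of Fgf8, on Npm3, a histone chaperone gene that begins 11243 bp above that end, or the 1 kb beside it and its neighbour Oga. With peaks at coding neighbours left out, an alternative chosen after seeing the data, the count was also 2 of 9, and no share over all genes was computed for it. The Fgf8 difference of 671.5 bp then fell to 0 bp, and it was 293 bp without control replicate 1, 1050 bp without control replicate 2 and 405.5 bp without knockout replicate 2. Among genes called in all 4 H3K4me3 lists, 91.6% had more called bases in both knockout lists, as Fgf4 and Fgfr1 did. The remaining H3K4me3 calls were 1 peak of 501 bp inside Fgfr2 in knockout replicate 2, and 1 of 501 bp in the Fgf17 window in knockout replicate 1, inside the neighbour Dmtn.

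H3K27ac did not separate the conditions at any of the 9 genes. In 0 of 9 windows did both knockout lists exceed both control lists (11.2% of all genes), and in 0 of 9 did both fall below them (3.81%). Called in all 4 lists were 3 of 9, Fgf4, Fgf17 and Fgfr1 (20.4% of all genes), and in knockout alone 0 of 9 (2.98%). Among all genes called in all 4 H3K27ac lists, 28.5% had more called bases in both knockout lists. Single H3K27ac peaks of 501 bp in knockout replicate 2 lay inside Fgfr2, 13837 bp after its start, and in the Fgf8 window at Npm3 and Oga. H3K4me3 and H3K27ac peaks of knockout cells also overlapped in the windows of Fgf8 (501 bp) and Fgf17 (197 bp), both at the neighbouring genes.

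Fgf17, a ligand of the Fgf8 subfamily (chromosome 14, 70636203 to 70642268), had H3K27ac in its window that lay on another gene. The called bases were 2026 bp and 1327 bp for the control replicates, then 2546 bp and 1401 bp for the knockout ones, and the conditions overlapped (exact permutation p = 0.667). Every one of these peaks touched Dmtn, a gene for an actin-binding protein whose span ends 155 bp below Fgf17, or the 1 kb beside it. Only a peak of 501 bp in control replicate 2 reached into Fgf17. H3K27me3 was called at Fgf17 in knockout replicate 1 alone, as peaks of 1198 bp, 501 bp and 501 bp from 4263 bp to 7785 bp above the lower-coordinate end. Since knockout replicate 2 had none, the difference was within the spread between replicates (exact permutation p = 1.0).

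H3K27me3 was the mark most of the family carried. It was called in all 4 lists at 5 of 9 genes, against 10.2% of all protein-coding genes, namely at the ligands Fgf5, Fgf8 and Fgf15 and the receptors Fgfr2 and Fgfr3. In 4 of 9 windows, all of these but Fgf8, both knockout lists had more called bases than either control list, against 12.3% of all genes. The reverse was found at 0 of 9 (0.786%), and 0 of 9 were called in knockout alone (3.55%). Read against genes called in all 4 lists, of which 55.9% had more called bases in both knockout lists, the count was 4 of 5.

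Fgfr3, a receptor best known for restraining bone growth (chromosome 5, 33721724 to 33737068), had the most H3K27me3 of the 9 genes in knockout cells. Called bases were 1901 bp and 5196 bp for the control replicates, then 8317 bp and 10362 bp for the knockout ones. The knockout replicates exceeded the control replicates, with means of 3548.5 ± 2330 bp and 9339.5 ± 1450 bp (SD, n = 2 each), a 2.63-fold difference (exact permutation p = 0.333, the smallest possible). The knockout mean exceeded that of 99.4% of protein-coding genes and the control mean that of 98.8%. With the gene span alone the difference was 2821.5 bp in place of 5791 bp. The position differed as well as the amount. In knockout cells 1 wide peak crossed the start, from 1803 bp before to 3930 bp after it in replicate 1 and from 2932 bp before to 5090 bp after it in replicate 2. These peaks were 5734 bp and 8023 bp wide, with 74 and 19 wider peaks in their lists. Both covered the whole printed sequence and the second annotated start. In control replicate 2 a peak of 4194 bp began 1092 bp after the start, and in control replicate 1 the peaks of 501 bp to 899 bp began 5362 bp after it. The control replicates shared 0 bp of H3K27me3 at Fgfr3, while 51.0% of the bases called in either knockout replicate were called in both. H3K4me3 and H3K27ac were not called at Fgfr3 in any list. The neighbour Letm1 lies in the window, but 0 H3K27me3 peaks of any of the 9 windows touched another coding gene or the 1 kb beside it.

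Fgfr2, a receptor used by epithelia and by the primitive endoderm (chromosome 7, 130162451 to 130266808, minus strand), had H3K27me3 grouped around its start and the first kilobases of the gene. Called bases were 1380 bp and 1185 bp for the control replicates, then 5236 bp and 4066 bp for the knockout ones. The lists of the conditions lay apart, with means of 1282.5 ± 138 bp and 4651 ± 827 bp (SD, n = 2 each), a 3.63-fold difference (exact permutation p = 0.333, the smallest possible). Among protein-coding genes, the control mean was above 93.9% and the knockout mean above 97.1%. In control replicate 1 the peaks lay from 1285 bp to 660 bp before the start and from 886 bp to 1639 bp after it. In control replicate 2 they lay 1045 bp to 1545 bp and 4685 bp to 5368 bp after it. In knockout replicate 1 a peak of 3337 bp ran across the start, from 1299 bp before to 2037 bp after it, and covered the printed sequence. In knockout replicate 2 the same stretch held 2 peaks, of 629 bp before the start and 1471 bp after it, and the start itself was not called. Each condition also had peaks 2597 bp to 5368 bp after the start, in 3 of the 4 lists. The body of this 104358 bp gene was otherwise almost bare, with 1 H3K27me3 peak of 501 bp in each knockout list deep in the gene.

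The ligand Fgf5, a gene that stem cells switch on as they leave the naive state (chromosome 5, 98254184 to 98277033), had less H3K27me3. Called bases were 501 bp and 1477 bp for the control replicates, then 1673 bp and 2003 bp for the knockout ones, with means of 989 ± 690 bp and 1838 ± 233 bp (SD, n = 2 each), a 1.86-fold difference (exact permutation p = 0.333, the smallest possible). The lowest knockout value was above the highest control value by a narrow margin. Among protein-coding genes, the control mean was above 91.9% and the knockout mean above 90.8%, so the rank did not rise. The difference of 849 bp was 361 bp without control replicate 1 and 1337 bp without control replicate 2. The order of the conditions was lost with the gene span alone, with minimum-width peaks left out and with lists of equal length. Peaks between 1224 bp and 2916 bp after the start were called in all 4 lists. Before the start, peaks were called in knockout cells alone, from 1097 bp to 597 bp before it in replicate 1 and from 604 bp before to 206 bp after it in replicate 2. The printed Fgf5 sequence was covered in knockout replicate 2 and in no other list. Neither active mark was called at Fgf5 in any list.

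Fgf15, the rodent counterpart of human FGF19, which acts as a gut hormone on bile acid synthesis and is made in the embryonic brain (chromosome 7, 144896532 to 144900953), lies next to Fgf4. Its nearest end is 31287 bp from the end of Fgf4, and the windows do not overlap. The marks were nevertheless opposite, with H3K27me3 in all 4 lists at Fgf15 and 0 at Fgf4, and active marks at Fgf4 and 0 at Fgf15. Called bases of H3K27me3 were 1785 bp and 1643 bp for the control replicates, then 2227 bp and 3474 bp for the knockout ones. The lists of the conditions lay apart (means 1714 ± 100 bp and 2850.5 ± 882 bp, SD, n = 2 each, 1.66-fold, exact permutation p = 0.333, the smallest possible). Among protein-coding genes, the control mean was above 95.8% and the knockout mean above 94.2%, so the rank did not rise. In every list the peaks lay between 2360 bp below and 2624 bp above the lower-coordinate end. The widest, 2973 bp in knockout replicate 2, crossed that end. The difference of 1136.5 bp was 513 bp without knockout replicate 2, 1760 bp without knockout replicate 1 and 632 bp with the gene span alone. With a window of 20 kb either side of Fgf15, H3K4me3 was called in both knockout lists and neither control list, as at 18.1% of all genes. Those called bases lay more than 10 kb outside the gene, and neighbouring genes there were not checked.

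Fgf8, a ligand of gastrulation, brain and limb patterning (chromosome 19, 45736491 to 45742941), was the exception among the genes with H3K27me3 in all 4 lists. Called bases were 7284 bp and 2145 bp for the control replicates, then 924 bp and 5969 bp for the knockout ones. The conditions overlapped (means 4714.5 ± 3630 bp and 3446.5 ± 3570 bp, SD, n = 2 each, exact permutation p = 0.667), and the spread between replicates exceeded the difference. The widest peak was 4335 bp in control replicate 1, 2145 bp in control replicate 2 and 3165 bp in knockout replicate 2, all within 3259 bp to 7918 bp above the lower-coordinate end. Knockout replicate 1 had none there and only a peak of 924 bp at the lower-coordinate end. The knockout replicates thus shared 0 bp, while all 2145 bp of control replicate 2 lay within the peaks of control replicate 1.

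Fgfr4, a receptor of liver and muscle that works with beta-Klotho (chromosome 13, 55152818 to 55168759), was almost free of peaks. H3K27me3 was called as 679 bp in control replicate 2 and 501 bp in knockout replicate 2, at different places 1116 bp and 6663 bp into the gene. H3K27ac was called as 501 bp in control replicate 2 and 850 bp in knockout replicate 1, near the far end of the gene. No H3K4me3 was called in any list, and none of the peaks touched the printed promoter. For both marks the conditions overlapped (exact permutation p = 1.0).

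**Figure D2:**
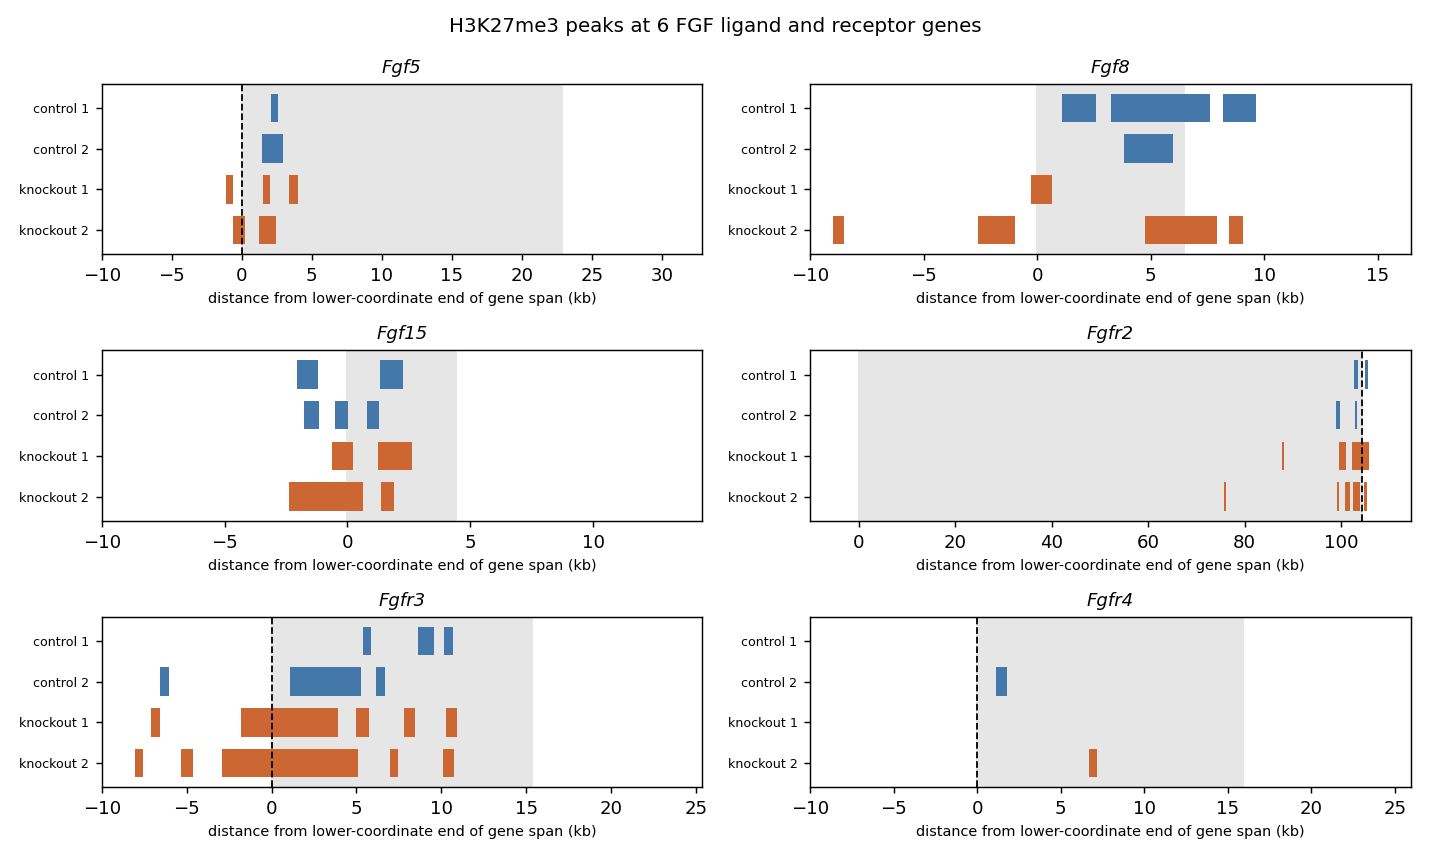
Positions of H3K27me3 peaks at 6 genes, as distance in kb from the lower-coordinate end of the gene span (grey). Bars are peaks, blue in control and orange in knockout cells, 1 row per library, and the dashed line marks the annotated start where the table gives a strand. At Fgfr3 peaks of 5734 bp and 8023 bp cross the start in knockout lists alone, at Fgfr2 the peaks gather around the start, and at Fgf8 the knockout replicates share 0 bp.

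H3K27me3 was also counted at gene starts. Within 1 kb of the start, 2 of 9 genes were called in both knockout lists and neither control list, Fgf5 (404 bp and 811 bp) and Fgfr3 (2001 bp and 2001 bp, the whole stretch). Over all protein-coding genes the share was 2.28%, with both span ends used for genes that have no strand in the table. At Fgfr3 the first annotated start was used, and the control replicate 2 peak began 1092 bp after it, just outside the stretch. The second annotated start lies 582 bp further into the gene, and that control peak began within 1 kb of it. Counted from the second start, Fgfr3 would be called in a control list. At Fgfr2 the start stretch held 456 bp and 0 bp for the control replicates, then 2001 bp and 1046 bp for the knockout ones. At Fgf15, where both span ends were used, it held 0 bp and 714 bp for the control replicates, then 846 bp and 1613 bp for the knockout ones. At Fgf8, also with both span ends, it held 2001 bp and 521 bp for the control replicates, then 924 bp and 2029 bp for the knockout ones, and the conditions overlapped.

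The placement of H3K27me3 peaks agreed only in part between replicates. Over all genes called in both lists of a condition, the median share of called bases common to both replicates was 4.07% in control and 13.6% in knockout cells. The values at Fgf5, Fgf8, Fgf15 and Fgfr2 were 20.8% to 33.9% in control cells, and 0% at Fgfr3. In knockout cells they were 16.1% at Fgf5, 30.9% at Fgf15, 32.3% at Fgfr2, 51.0% at Fgfr3 and 0% at Fgf8. H3K4me3 peaks were placed more alike, with 84.6% at Fgf4 and 60.8% at Fgfr1 in knockout cells (median over genes 62.8%) and 47.3% and 59.3% in control cells (median 40.8%). For H3K27ac the share at Fgf4 was 34.0% in control and 45.4% in knockout cells, against medians of 25.6% and 34.3%. At Fgf17 it was 29.8% and 14.5%, and at Fgfr1 0% and 15.1%.

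**Figure D3:**
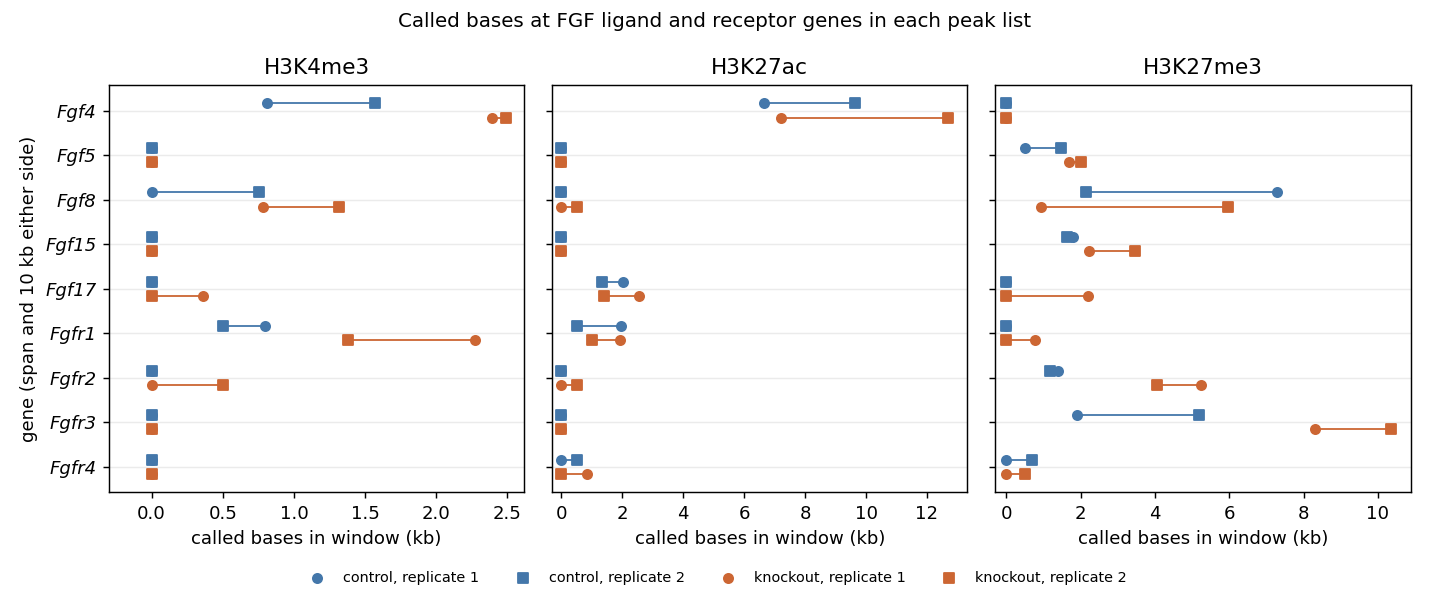
Called bases (kb, linear axis) in the window of each gene for H3K4me3, H3K27ac and H3K27me3. Each point is 1 peak list, circles for replicate 1 and squares for replicate 2, blue for control and orange for knockout, and lines join the replicates of a condition. For H3K27me3 the knockout points lie to the right of both control points at Fgf5, Fgf15, Fgfr2 and Fgfr3, and the points of Fgf8 overlap.

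The genes with the most similar called bases over the 12 lists were named for the 5 members called in 6 or more lists, by mean absolute log2 difference after adding 1000 bp. Nearest to Fgf4 were Mettl27 (0.13), Cldn4 (0.16) and Nfe2l2 (0.18). Nearest to Fgfr1 were Gdi2, Cpne1 and Rbm12 (0.16 each), and nearest to Fgfr2 were Crb2 (0.09), Cdc42ep1 (0.12) and H2aw (0.12). For Fgf17 they were Extl1 (0.15), Itpr3 (0.19) and Armc9 (0.20). For Fgf8 the nearest genes were farther off, Srp68 (0.30), Tbc1d30 (0.34) and Diablo (0.34). Mettl27 and Cldn4 both lie on chromosome 5, and Cpne1 and Rbm12 both on chromosome 2. The named genes were kept apart from the member but not from each other, so such a pair may share peaks. This measure describes these lists only.

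The rest of the pathway was read from lists of genes by role, with the same windows. Peaks at neighbouring genes were not set apart here or at the marker genes above. A value given for a gene may therefore come from a neighbour. Of 13 other secreted FGF ligands, H3K4me3 was called in both control lists at 0 and in both knockout lists at 2, Fgf2 (1383 bp and 534 bp in knockout) and Fgf22 (1093 bp and 1434 bp). Those 2 are 15.4% of the list, below the 33.9% of all genes in both knockout lists (5.85% in both control lists). H3K27me3 was called in both control lists at 3, Fgf6, Fgf9 and Fgf18, and in both knockout lists at 6. These are 23.1% and 46.2% of the ligands, against 12.2% of all genes in control cells and 4370 of 21887 in knockout cells. Fgf9 had the largest difference of these ligands, with 3160 bp and 1002 bp for the control replicates, then 6291 bp and 7766 bp for the knockout ones. Fgf3, on the other side of Fgf4 from Fgf15, had 0 bp and 501 bp for the control replicates, then 2247 bp and 3265 bp for the knockout ones. Fgf23, a phosphate hormone, was called in knockout alone (1762 bp and 501 bp), as were 3.55% of all genes. Of the 4 intracellular FGF homologous factors, which do not act through the receptors, H3K27me3 was called in both control lists at 1, Fgf12, and in both knockout lists at 3, with Fgf11 and Fgf14. The shares of all genes beside these counts are the 12.2% in control and 4370 of 21887 in knockout cells given above.

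Of 17 adaptors and kinases, H3K4me3 was called in both control lists at 1, the adaptor Frs2, and in both knockout lists at 12. These are 5.88% and 70.6% of the list, against the 5.85% and 33.9% of all genes. Sos2, Ptpn11, Gab1 and Hras were called in knockout alone, which is 23.5% of the list against 16.6% of all genes. At Ptpn11, the phosphatase SHP2, the knockout values were 959 bp and 1298 bp. H3K27ac was called in both control lists at 8 of 17 and in both knockout lists at 8 (25.2% and 30.2% of all genes), with 7 called in all 4. Map2k1, which encodes the kinase MEK1, had 8983 bp to 10856 bp. H3K27me3 was called at 0 of 17 in both lists of either condition, against the same shares of all genes as above.

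Of 12 genes for the decoy receptor Fgfrl1, coreceptors and heparan sulfate enzymes, H3K4me3 was called in both control lists at 2, Klb and Hs6st1, and in both knockout lists at 5. These are 16.7% and 41.7% of the list, against 5.85% and 33.9% of all genes. H3K27ac was called in all 4 lists at 6, against 20.4% of all genes. At Ndst1, which encodes a heparan sulfate sulfotransferase, it was higher in both control lists, with 2945 bp and 3654 bp against 501 bp and 2505 bp. H3K27me3 was called in all 4 lists at 3, Fgfrl1, Kl and Flrt1, against 10.2% of all genes. At Flrt1, a transmembrane partner of FGF receptors, it covered 1039 bp and 627 bp for the control replicates, then 5383 bp and 5531 bp for the knockout ones.

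Of 17 ERK targets and feedback inhibitors, H3K4me3 was called in both control lists at 3, Spry2, Spred2 and Il17rd, and in both knockout lists at 10, which is 17.6% and 58.8% of the list against 5.85% and 33.9% of all genes. Spry1, Dusp5, Etv5 and Egr1 were called in knockout alone, which is 23.5% of the list against 16.6% of all genes. H3K27ac was called in both control lists at 5 and in both knockout lists at 7, or 29.4% and 41.2% against 25.2% and 30.2% of all genes. At 6 of 17 genes both knockout lists had more called bases, or 35.3% against 11.2%. Etv5, an ETS factor gene that responds to ERK, had 14615 bp and 16793 bp for the control replicates, then 16881 bp and 18352 bp for the knockout ones. H3K27me3 was called in both control lists at 4, or 23.5% against 12.2% of all genes, and in both knockout lists at 8, or 47.1% against 4370 of 21887 genes. Etv4, another ETS factor gene, had less in knockout lists, with 1641 bp and 1270 bp in control replicates and 1002 bp and 645 bp in knockout ones. These lists were chosen with earlier results of these data known, and their counts are a description beside the shares of all genes.

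**Figure D4:**
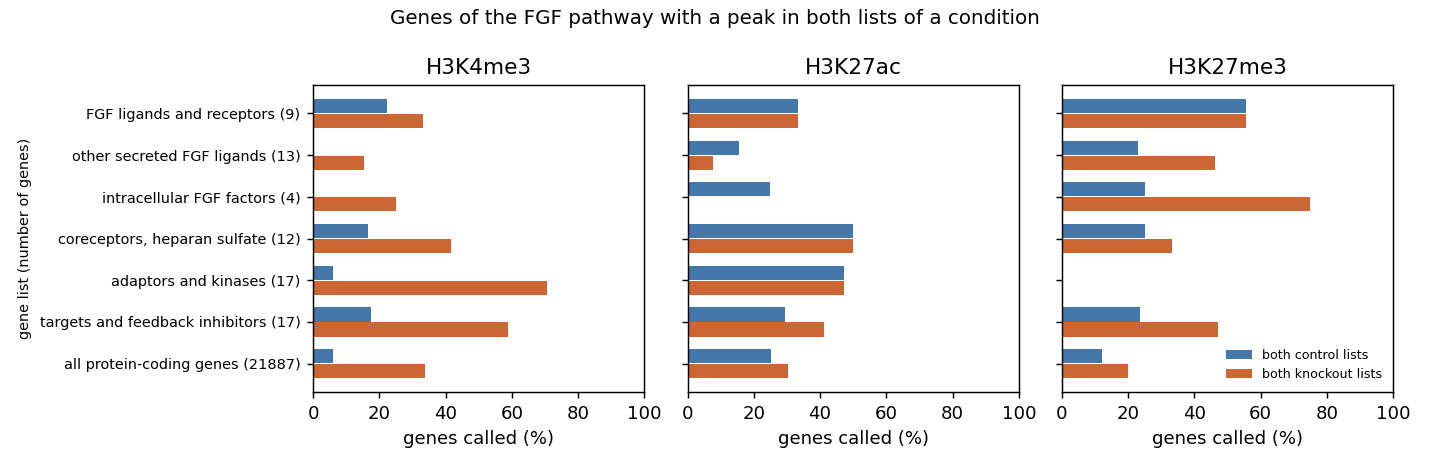
Share of genes (%) with a peak in both control (blue) or both knockout (orange) lists, for the 9 ligands and receptors, 5 further lists of the FGF pathway and all protein-coding genes, with the number of genes in brackets. H3K27me3 is called in both control lists at 5 of the 9 ligands and receptors and at 0 of the 17 adaptors and kinases, which have H3K4me3 in both knockout lists at 70.6%.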

How the data were processed

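The data were ChIP-seq peak lists of 3 marks in Mettl14 control and knockout mouse embryonic stem cells, 2 lists per group, grouped by title. The tools named per the submitters' processing notes are HOMER, SAMtools, Bowtie2 2.4.1, Trimmomatic 0.38 and CASAVA, and the build is mm10. Not given in the sources used here are the settings of the peak caller and any use of inputs or spike-in chromatin. One peak list was deposited per library. The deposited score is the constant 1 and was not used, so the measurements are the deposited start and end positions, written here counted from 1.

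Gene spans came from a RefSeq table of GRCm38.p6, the assembly of mm10, and starts and strands from its promoter table, which holds 79.9% of the protein-coding genes. Called bases are the peak bases inside the gene span and 10 kb either side, and a peak counted from 1 bp of overlap. All 21887 protein-coding genes were computed alike. Each member was compared by exact permutation (two-sided, 6 ways to assign 4 lists). Counts of members were set beside those of all genes. Long genes have wider windows, and the median window was 35.3 kb for members and 37.2 kb for all genes. The members and lists were chosen with earlier results of these data known.

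All 9 members were named, with neighbours on which a peak lay, up to 4 genes per class of each pathway list in list order (Map2k1 was named outside that order, after its values were seen), and the 3 most alike genes. Counting was tested on simulated intervals with known answers. Alternatives were other windows, midpoints, no minimum-width peaks, equal list length (the widest peaks of each list kept), 1 list left out and a replicate block. Python 3.11.15, numpy 2.4.6 and pandas 2.3.3 were used.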

Additional observations from a re-analysis of the deposited data

How the results depend on the processing

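Each count of members was recomputed under 13 alternative settings per mark (the replicate block for 1 of the 2 counts), which gave 75 counts, of which 62 stayed within 1.5 times the reported one. Of 247 recomputed differences between condition means, 44 moved by more than the spread between replicates. A change of sign was found in 20, all where the conditions overlapped (H3K27ac at Fgf4, Fgf17, Fgfr1 and Fgfr4, H3K27me3 at Fgf8 and Fgfr4). At the 7 genes and marks whose conditions lay apart, 0 of 91 changed sign, 11 moved, and 4, all H3K4me3 in the Fgf8 window, fell to 0. Both knockout values exceeded both control values at these 7, so leaving out 1 list or using the replicate block could not change a sign. Members with H3K4me3 in knockout alone, 0 as reported, were 1 with 20 kb either side (Fgf15, 18.1% of all genes) and 0 to 1 with 1 list left out (Fgf8 without control replicate 2, Fgfr2 without knockout replicate 1, Fgf17 without knockout replicate 2), against 22.4% to 23.6% of all genes. Members with more H3K4me3 in both knockout lists, 3 as reported, were 1 within 1 kb of the start (Fgfr1, 22.0% of all genes) and 3 to 4 with 1 list left out (32.6% to 40.5%). For H3K27ac, 0 as reported, leaving out 1 list gave 0 to 2 members in knockout alone (5.62% to 7.20% of all genes) and 1 to 3 with more called bases (15.4% to 22.2%). The latter were Fgf17 and Fgfr1 without control replicate 1, Fgf4 without control replicate 2, Fgf4, Fgf8 and Fgfr2 without knockout replicate 1, and Fgf17 and Fgfr4 without knockout replicate 2. Fgf8 and Fgfr2 were also those in knockout alone. For H3K27me3 in knockout alone, 0 as reported, the count was 2 within 1 kb of the start (Fgf5 and Fgfr3, 2.28% of all genes) and 0 to 2 with 1 list left out (Fgf17 and Fgfr1 without knockout replicate 2, 6.17% to 7.70%). Fgfr3 was counted there by its first annotated start only. More H3K27me3 in both knockout lists, 4 as reported, was found at 4 to 6 with 1 list left out, the 6 without knockout replicate 2 (14.3% to 20.7% of all genes). It was found at 3, all but Fgf5, with the gene span alone (7.58%), no minimum-width peaks (8.69%) or equal list length (8.35%). With fewer lists, fewer calls are required. Replicates share a number only. With a replicate block, which compares lists of the same number, the counts were 3 for H3K4me3 (32.6% of all genes), 2 for H3K27ac (Fgf4 and Fgf17, 14.1%) and 4 for H3K27me3 (14.1%), and deviations of same-numbered lists correlated at 0.01, 0.01 and -0.01 over genes. Depth is unknown, so a missing peak is not a missing mark.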
